A study of Mus musculus with 32 samples.

Results

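The SLAM (signaling lymphocytic activation molecule) family receptors were followed through 8 sorted fractions of mouse bone marrow at 2 ages. The members were the 7 genes of the family chosen by symbol, Slamf1, Cd48, Cd244, Ly9, Cd84, Slamf6 and Slamf7, out of 24421 genes in the count table, and together they took 0.0241% of all counts. These receptors carry immunoglobulin domains on the surface of blood cells. Most bind a copy of themselves on a neighbouring cell, whereas CD244 binds CD48, and those with a cytoplasmic switch motif signal through the adaptors SAP and EAT-2, the kinase Fyn and the phosphatases SHP-1, SHP-2 and SHIP-1. In bone marrow they are best known as sorting antigens: CD150, the product of Slamf1, marks hematopoietic stem cells (HSCs), and CD48 is absent from HSCs and present on most of their progeny.

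RNA-seq was performed on HSCs, on multipotent progenitors (MPP) 1 to 4, on granulocyte-macrophage progenitors (GMPs), on megakaryocyte-erythrocyte progenitors (MEPs) and on common lymphoid progenitors (CLPs). All cells came from female C57BL/6 mice, 10 weeks old in the Young groups and 20 months old in the Aged groups and the labels name no transgene or treatment. Each of the 16 groups had 2 libraries, 32 in all. According to the study the marrow was pooled by age before it was sorted in duplicate, so the spread between libraries of a group may be technical and need not include variation between mice. The HSC gate was IL-7-, lineage-negative, Sca-1+, c-kit+, CD34-, CD150+, CD48- and Flt3-. MPP1 differed from it by CD34+, MPP2 in addition by CD48+, MPP3 in addition by CD150-, and MPP4 in addition by Flt3+. GMPs were Sca-1-, c-kit+, FcgR+ and CD34+, MEPs were Sca-1-, c-kit+, FcgR- and CD34-, and CLPs were labelled IL-7+ and lineage-negative with low Sca-1 and low c-kit. Differences in Slamf1 from MPP2 to MPP3 and in Cd48 from MPP1 to MPP2 are therefore set by the gates and serve as a check of the sort. In bulk samples, fewer cells that express a gene and less RNA per cell cannot be told apart.

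The 7 genes form 1 cluster of 393978 bp on chromosome 1 (GRCm38, GENCODE M21). Cd244 (annotated as Cd244a) lies at chr1:171559193-171609746 on the plus strand, Ly9 at chr1:171588624-171607410 on the minus strand and Slamf7 at chr1:171632403-171653035 on the minus strand. Cd48 at chr1:171682009-171705258, Slamf1 at chr1:171767127-171801184, Cd84 at chr1:171839697-171890718 and Slamf6 at chr1:171917515-171953170 follow on the plus strand. Ly9 lies within the span of Cd244 on the opposite strand over 18787 bp, but their annotated exons share 0 bp. Slamf7 shares 423 bp of exon with an antisense gene, and since no use of strand was stated, reads of the pair could not be separated there.

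Promoter sequences were available from RefSeq (GRCm38.p6) for 6 of the 7 members. The 250 bases before the start site are shown for 3 members whose RefSeq and GENCODE start sites lie within 5 bp of each other and which stand for opposite ends of the family's range in HSCs, Slamf1 and Cd84 with their highest level there and Cd244 with few counts. Capitals mark matches on either strand to short motifs, namely TGTGGT for RUNX factors, GATAA for factors of the GATA family, AGGAAG for ETS factors and CAGGTG for E-box factors, and no matches overlapped. A further E-box form, CAGCTG, was searched in the same way and was not found in these windows.
Slamf1 (chr1:171766882-171767131, plus strand): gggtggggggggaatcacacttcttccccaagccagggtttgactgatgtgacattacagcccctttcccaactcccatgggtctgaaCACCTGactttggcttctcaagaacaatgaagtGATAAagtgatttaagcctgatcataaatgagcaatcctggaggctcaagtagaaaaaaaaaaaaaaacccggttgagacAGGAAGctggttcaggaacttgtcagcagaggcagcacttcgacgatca
Cd84 (chr1:171839447-171839696, plus strand): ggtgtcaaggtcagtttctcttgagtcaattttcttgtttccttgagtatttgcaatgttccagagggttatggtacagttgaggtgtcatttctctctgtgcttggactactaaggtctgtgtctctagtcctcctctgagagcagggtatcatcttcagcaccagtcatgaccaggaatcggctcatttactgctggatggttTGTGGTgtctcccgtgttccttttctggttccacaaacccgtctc
Cd244 (chr1:171558943-171559192, plus strand): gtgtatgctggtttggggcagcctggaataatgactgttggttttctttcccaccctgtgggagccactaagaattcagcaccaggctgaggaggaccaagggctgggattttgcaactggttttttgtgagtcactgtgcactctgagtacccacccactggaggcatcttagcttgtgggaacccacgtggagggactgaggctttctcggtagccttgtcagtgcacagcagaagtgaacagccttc
The Slamf1 window held a GATA motif starting 129 bases, an ETS motif 49 bases and an E-box (CAGGTG) 162 bases before the start site. The Cd84 window held a RUNX motif 45 bases before the start site, and the Cd244 window held none of these letters. Among 32536 promoter windows of the same length the motifs were common, with GATAA in 22.5%, AGGAAG in 29.6%, CAGGTG in 17.3%, CAGCTG in 13.1% and TGTGGT in 13.96%, so the matches are a description of the sequence only.

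Libraries held 11237384 to 17723245 counts, and a count of 0 allows up to 3 counts, or 0.169 to 0.267 CPM (counts scaled to the total of the library), which covers counting error only because amplified reads are not independent molecules. All 7 members passed the filter on low counts, but Slamf6 and Slamf7 stood at or near 0 in several groups. The marker lists of HSCs, GMPs, MEPs and CLPs each had their highest sum in the fraction they name, at both ages. Markers of other cells also differed by age. Some of these are given here for MEPs and CLPs, and others beside the results they move with. In Young MEPs the 5 CLP markers summed to 118 to 121 CPM, whereas in Aged MEPs they summed to 0.178 to 0.412 CPM with 4 of the 5 at 0. In CLPs the 6 basophil and mast cell markers summed to 1666 to 1700 CPM in Young and 7.64 to 11.8 CPM in Aged libraries, and the 5 dendritic cell markers to 1782 to 1829 and 3294 to 4625 CPM. The 6 B cell markers summed to 1954 to 2001 CPM in Young and 840 to 870 CPM in Aged CLPs. For the 5 GMP markers the sums were 1408 to 1442 and 204 to 288 CPM.

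Per kilobase of exon, which allows levels of different genes to be compared, Cd48 was the leading member in 13 of the 16 groups and Cd84 led in the means of HSCs and of Young MPP1. In Young HSCs Cd84 made up 45.2% and 46.9% of the summed family level in the 2 libraries, Slamf1 32.7% and 29.3%, Ly9 18.7% and 20.8%, and Cd48 3.21% and 3.02%. In Aged HSCs Cd84 led in 1 library (41.7% against 33.4% for Slamf1) and Slamf1 in the other (37.6% against 34.1% for Cd84). In Young MPP2, which differs from MPP1 by the CD48 gate, Cd48 already took 75.3% to 77.0% of the family level. It took 91.2% to 92.8% in Young GMPs. CLPs were the fraction in which all 7 members had at least 6 counts in every library. Cd48 held 72.6% to 73.8% of the level in Young CLPs, Ly9 12.1% to 13.6%, Cd244 4.17% to 5.003%, Slamf6 4.03% to 4.22%, Cd84 2.87% to 3.20% and Slamf7 1.95% to 2.23%.

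**Figure D1:**
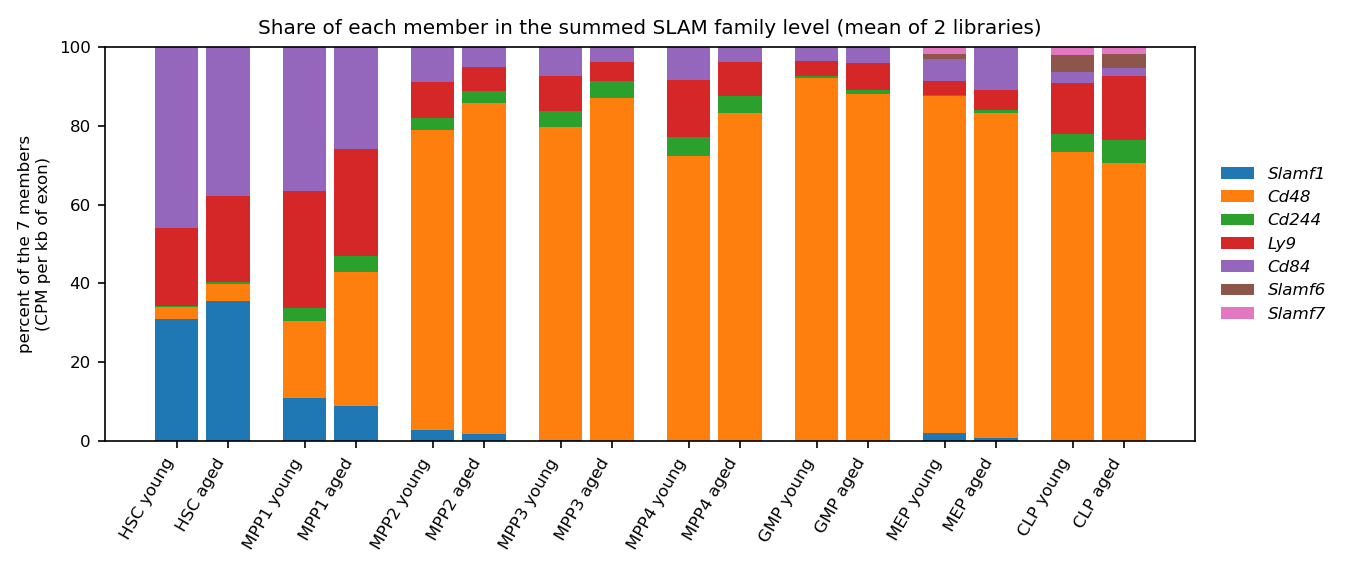
Stacked bars give, for each fraction and age, the mean share (percent) of each of the 7 members in their summed level, in CPM per kilobase of exon, over 2 libraries. Cd84, Slamf1 and Ly9 fill most of the HSC bars and Cd48 most of every bar from MPP2 on.

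The summed level of the 7 genes also differed between fractions. It was 402 to 408 CPM in Young CLPs, 167 to 171 CPM in Young HSCs and 139 to 146 CPM in Young MPP1. The lowest sums were those of MEPs, with 88.2 and 95.8 CPM in Young and 25.3 and 28.0 CPM in Aged libraries.

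**Figure D2:**
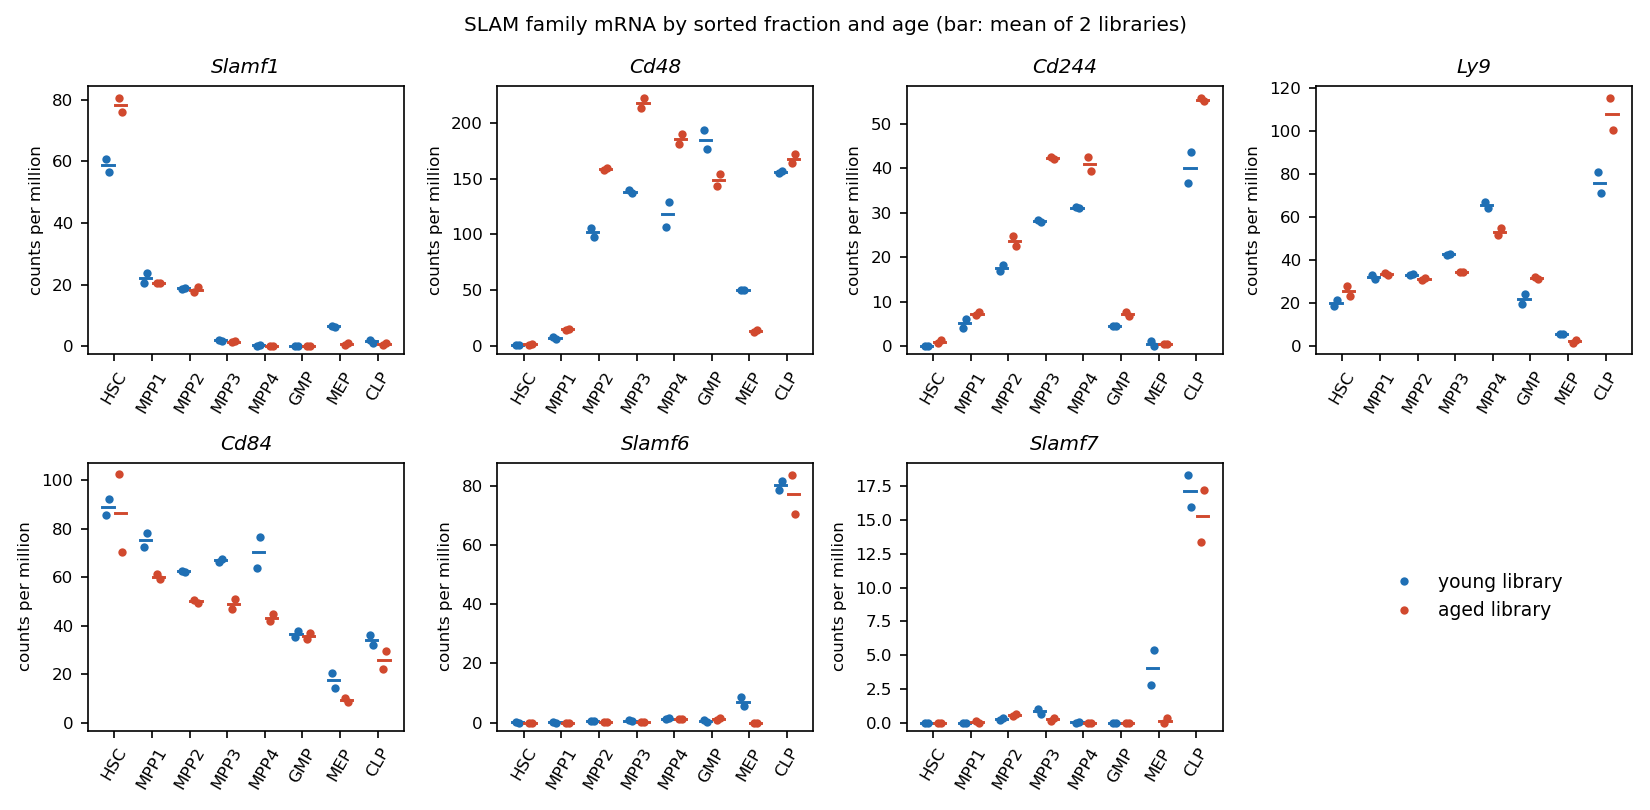
Each panel gives the level of 1 member in CPM (linear axis from 0, scales differ) in 8 fractions, with 1 point per library, blue for Young and red for Aged, and a bar at the mean of 2 libraries. Slamf1 and Cd84 are highest in HSCs, Slamf6 and Slamf7 peak in CLPs, and the Young MEP points of Slamf1, Slamf6 and Slamf7 stand above the Aged ones.

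Slamf1 and Cd48 changed at the gates set on their products, and also at the step from HSCs to MPP1, where neither gate changes. Slamf1 had 60.9 and 56.5 CPM in Young HSCs, and 20.6 and 23.7 CPM in Young MPP1. Young MPP2 libraries held 18.5 and 19.0 CPM of it, MPP3 libraries 2.08 and 1.72 CPM and MPP4 libraries 0.198 and 0.481 CPM. Its mean fell from HSCs to MPP1 by 1.69 on the log2 scale (SE 0.18, edgeR adjusted p = 2.5e-07, mean of both ages). It was lowest in GMPs, with 4 and 0 counts in Young and 0 and 0 in Aged libraries, and at CLPs it stood at 25 and 15 counts in Young and 6 and 17 in Aged libraries. Cd48 ran the other way, from 13 and 16 counts in Young HSCs to 116 and 89 in MPP1 and 1318 and 1298 in MPP2. The CD48- fractions HSC and MPP1 differed in Cd48 by a log2 fold of 2.85 (SE 0.14, adjusted p = 2.54e-13), although both were sorted as negative for the protein.

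The other 5 receptors, which were not used in the sort, fell into 3 patterns across fractions. Cd84, whose product binds itself on neighbouring cells and platelets, was highest in HSCs, with 85.7 and 92.1 CPM in Young and 103 and 70.2 CPM in Aged libraries, and lowest in MEPs, with 20.5 and 14.4 CPM in Young and 10.1 and 8.49 CPM in Aged libraries. The 2 Aged HSC libraries lay further apart than those of any MPP group. Cd244, which encodes the CD48 receptor 2B4 of natural killer cells, and Ly9 (CD229) were highest in CLPs. Cd244 had 2 and 0 counts in Young HSCs against 465 and 565 in Young CLPs, and the order of its mean level in Young cells was CLP, MPP4, MPP3, MPP2, MPP1, GMP, MEP and HSC. MPP1 and GMP overlapped in this order, as did MEP and HSC. Slamf6 (Ly108) and Slamf7 (CRACC) had their highest level in CLPs at both ages, with 998 and 1060 counts of Slamf6 and 233 and 207 of Slamf7 in Young CLPs. In HSCs they had 3 and 0, and 0 and 0, counts.

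Tested as 8 steps between fractions on the mean of both ages, 35 of 56 member tests passed an adjusted p of 0.01, 19 higher and 16 lower. These include Cd48 from MPP1 to MPP2 and Slamf1 from MPP2 to MPP3, which the gates set and which are only a check. From HSC to MPP1, 5 of 7 members were called, against 32.1% of the 14154 genes tested. Cd244 rose (adjusted p = 1.06e-08) from 30 counts summed over 4 HSC libraries to 339 over 4 MPP1 libraries, a ratio per total count of 10.8 with an exact 95% counting interval of 7.41 to 16.2. Ly9 rose by 0.50 (SE 0.09, adjusted p = 9.08e-05) and Cd84 fell by 0.41 (SE 0.10, adjusted p = 0.00289), a call that was lost without Young HSC replicate 2, Aged HSC replicate 1, Young MPP1 replicate 1 or either Aged MPP1 replicate (adjusted p 0.0142 to 0.0275). From MPP1 to MPP2, 3 of 7 were called against 15.5% of genes, Cd48, Cd244 (log2 fold 1.78, SE 0.20) and Slamf7. The Cd48 call was set by the CD48 gate. The Slamf7 call, on 2 and 25 summed counts, was lost when any of these 8 libraries but Aged MPP1 replicate 1 was left out (adjusted p 0.0153 to 0.0391). From MPP2 to MPP3, 3 of 7 were called against 4.67%, including Slamf1, whose call was set by the CD150 gate. Cd244 was higher by 0.77 (SE 0.18, adjusted p = 0.00631). That call was lost when any 1 of the 8 libraries was left out (adjusted p 0.0200 to 0.0513), while the log2 fold stayed between 0.72 and 0.81. From MPP3 to MPP4, 3 of 7 were called against 9.69%, with Ly9 higher by 0.65 (SE 0.08, adjusted p = 7.33e-06), Slamf1 lower from 92 to 12 summed counts (adjusted p = 4.85e-05, ratio per total count 7.87, interval 4.30 to 15.8), and Slamf7 lower from 29 to 1 summed counts. The Slamf7 call was lost without 6 of the 8 libraries, all but Young MPP4 replicate 2 and Aged MPP3 replicate 1 (adjusted p 0.0108 to 0.0654). Cd244 was thus called higher at the first 3 steps and Ly9 at the first and the fourth.

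The steps to the more restricted progenitors changed more genes. From MPP2 to MEP, 5 of 7 members were called lower while 70.7% of all genes were called and the median of all genes shifted by -0.24 on the log2 scale. Cd244 fell by 5.19 (SE 0.29), Ly9 by 2.98 (SE 0.11), Slamf1 by 2.90 (SE 0.24), Cd48 by 2.13 (SE 0.08) and Cd84 by 1.99 (SE 0.12), all far beyond that shift. Slamf6 and Slamf7 did not pass in the mean of both ages. Slamf6 had 26 summed counts in MPP2 and 223 in MEPs, all of the latter in Young MEPs, and Slamf7 had 25 in MPP2 and 128 in MEPs, of which the Aged libraries held 0 and 4. Their ratios per total count were 8.64 (interval 5.74 to 13.5) and 5.16 (interval 3.34 to 8.26), higher in MEPs. These ratios pool both ages and rest on Young MEPs. Their intervals, like every counting interval given here, cover counting error only and leave out the spread between libraries. The edgeR log2 folds on the mean of both ages were -0.71 for Slamf6 (adjusted p = 0.475) and 1.11 for Slamf7 (adjusted p = 0.136). Aged cells did not show the higher level in MEPs, with 5 and 3 counts of Slamf6 in MPP2 against 0 and 0 in MEPs. Slamf7 had 7 and 10 against 0 and 4. These counts lie near the floor of 3, and the step was not tested in Aged cells alone. From MPP3 to GMP, 4 of 7 were called against 61.5% of genes. Cd244 fell by 2.25 (SE 0.19, adjusted p = 1.07e-09), Slamf1 from 92 to 4 summed counts (ratio 26.5, interval 10.01 to 99.4) and Slamf7 from 29 to 0, which is at least 2.78-fold lower in GMPs. Cd48 was called higher by 0.27 (SE 0.07, adjusted p = 0.00226), but its mean before TMM scaling was 178 CPM in MPP3 and 167 CPM in GMPs, and the call was lost with DESeq2 size factors (log2 fold 0.20, adjusted p = 0.0172) and without any 1 of the 4 GMP libraries or Young MPP3 replicate 1 (adjusted p 0.0337 to 0.171). With those size factors Cd84 and Ly9 were called lower in GMPs (-0.39 and -0.28). From MEP to GMP, 6 of 7 were called against 59.7%, 4 of them higher in GMPs: Cd244, Ly9, Cd48 and Cd84. The call of Slamf7 in this step rested on Young MEPs and 1 Aged MEP library, since GMPs had 0 counts. It was lost without Aged MEP replicate 2 (log2 fold -4.47). Aged MEPs and GMPs then all stood at 0 counts, and that fit could not test the contrast.

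From MPP4 to CLP, 6 of 7 members were called against 50.1% of genes, 5 of them higher. Slamf6 went from 74 to 4214 counts summed over 4 libraries, a ratio per total count of 58.3 with a counting interval of 46.3 to 74.4. Slamf7 went from 1 to 868 counts, a ratio of 889 with an interval of 159 to 35140. Ly9 rose by a log2 fold of 0.73 (SE 0.08, adjusted p = 1.09e-07) and Slamf1 from 12 to 63 summed counts. Cd84 fell by 0.77 (SE 0.11, adjusted p = 2.19e-06), and Cd244, at 36.0 CPM in MPP4 and 47.7 CPM in CLPs, did not pass (adjusted p = 0.0126). The weak call of Cd48 in this step (log2 fold 0.25, SE 0.07, adjusted p = 0.00652) was lost without 7 of the 8 libraries, all but Young MPP4 replicate 2, and most when Young MPP4 replicate 1 was left out (0.14, adjusted p = 0.112).

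With age, the family did not move as a block. Of 56 tests of 7 members in 8 fractions, 14 passed an adjusted p of 0.01, 6 higher and 8 lower in Aged cells, and 6 of the 8 lower calls were in MEPs. In MPP1, MPP2 and MPP3, 1 member each was called, Cd48 and higher, where 6.8%, 7.81% and 13.9% of all genes were called. In MPP4, 2 members were called against 16.6% of genes, and in GMPs 2 against 18.9%. In CLPs, 1 member was called against 10.4%, and in MEPs 6 of 7 against 20.8%. In HSCs, edgeR called 0 of the 7 members where it called 5.4% of all genes, although 3 members had an unadjusted p under 0.05. The median log2 difference of the members was 0.39 in HSCs against 0.02 for all genes and -1.89 in MEPs against 0 for all genes, and in the other 6 fractions it lay between -0.26 and 0.10. DESeq2 called 2 members in HSCs, Slamf1 and Cd244, where it called 9.8% of all genes.

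**Figure D3:**
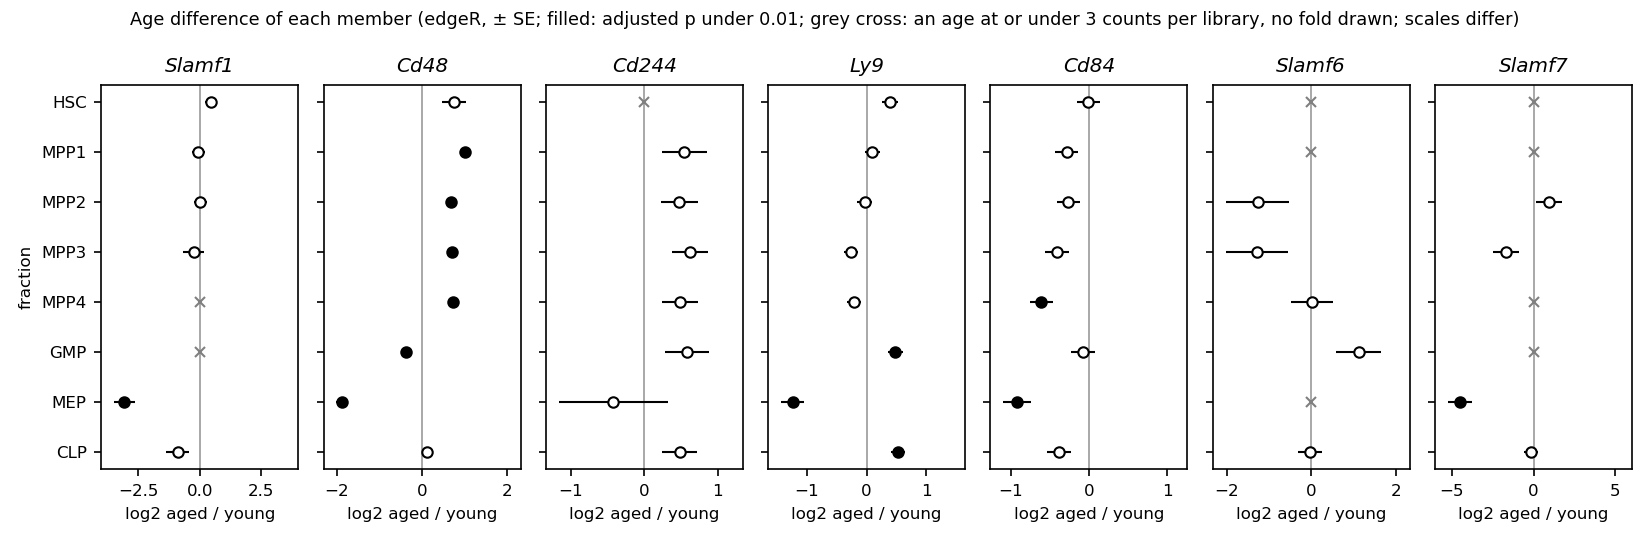
Points give the log2 ratio of Aged to Young (horizontal axis, one scale per panel) for 7 members in 8 fractions, with the standard error of the edgeR fit, filled points at an adjusted p under 0.01, and grey crosses on the zero line for groups at or under 3 counts per library. Cd48 lies right of zero in MPP1 to MPP4 and left of it in GMPs and MEPs.

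In HSCs, the gene of the CD150 antigen itself, Slamf1, had 60.9 and 56.5 CPM in Young and 80.4 and 76.0 CPM in Aged libraries. The ages did not overlap, but the log2 fold change of 0.46 (SE 0.25) did not pass in edgeR (adjusted p = 0.282), and it passed in DESeq2 (0.47, adjusted p = 0.00359). Cd48 had 13 and 16 counts in Young and 16 and 33 in Aged HSCs (adjusted p = 0.129). Cd244 had 2 and 0 counts in Young and 9 and 19 in Aged HSCs, a ratio per total count of 13.5 with an exact 95% counting interval of 3.41 to 117. It missed the threshold in edgeR (adjusted p = 0.0143). Among 10 refits at the same threshold it passed only in DESeq2 (adjusted p = 0.00386) and without the MEP libraries (adjusted p = 5.16e-04). The latter fit was added after seeing the data. Over these refits its log2 fold ran from 2.57 to 6.80. In the same HSC libraries the 6 T and NK cell markers summed to 28.6 to 32.3 CPM in Young and 87.5 to 94.0 CPM in Aged. Klrb1c and Nkg7 made up nearly all of this sum, while Cd3e, Cd3d and Gzma were at 0 at both ages. The 6 basophil and mast cell markers summed to 1.05 to 1.78 CPM in Young and 11.2 to 18.7 CPM in Aged HSCs, and the 5 GMP markers to 243 to 260 and 397 to 535 CPM. Other sums were lower in Aged HSCs without overlap. The 6 HSC markers summed to 2025 to 2115 CPM in Young and 1617 to 1797 CPM in Aged HSCs, and the 5 macrophage genes to 28.7 to 37.0 and 11.4 to 16.4 CPM. The B cell and plasma cell sums were lower too. The part of these markers in the HSC differences was not tested. Ly9 had 18.8 and 21.6 CPM in Young and 28.0 and 23.5 CPM in Aged HSCs (log2 fold 0.39, SE 0.13, adjusted p = 0.0533). Cd84 did not separate by age in HSCs, where the Aged libraries lay on both sides of the Young ones.

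Cd48, the glycolipid-anchored ligand of CD244, was upregulated in all 4 Aged MPP fractions. In MPP1, Young libraries had 8.73 and 6.58 CPM and Aged libraries 14.2 and 15.9 CPM, with no overlap (log2 fold 1.02, SE 0.14, adjusted p = 4.05e-05). In MPP2 the levels were 106 and 98.2 CPM in Young and 158 and 159 CPM in Aged libraries (0.69, SE 0.11, adjusted p = 1.57e-04). MPP1 is sorted as CD48- and MPP2 as CD48+, so Cd48 mRNA was higher with age on both sides of that gate. In MPP3 they were 140 and 137 in Young and 213 and 222 CPM in Aged libraries (0.70, SE 0.10, adjusted p = 4.97e-05), and in MPP4 107 and 129 against 181 and 189 CPM (0.74, SE 0.10, adjusted p = 2.25e-05). GMPs went the opposite way, with 193 and 176 CPM in Young and 143 and 154 CPM in Aged libraries (-0.37, SE 0.10, adjusted p = 0.00996). This call lies at the threshold and was lost when any 1 of the 4 GMP libraries was left out (adjusted p 0.0113 to 0.105). In CLPs, Cd48 had 155 and 157 CPM in Young and 164 and 172 CPM in Aged libraries and did not pass (adjusted p = 0.461). The T and NK cell sum was also higher in all 4 Aged MPP fractions without overlap. In MPP1 it was 46.7 to 48.3 CPM in Young and 65.9 to 71.8 CPM in Aged libraries. The GMP marker sum was 247 to 254 and 383 to 631 CPM in MPP1, but was lower in Aged MPP2 and MPP3. The HSC marker sum was lower in all 4 Aged MPP fractions without overlap, at 1553 to 1663 CPM in Young and 1152 to 1162 CPM in Aged MPP1. The part of these markers in the Cd48 and Cd244 differences of MPPs was not tested.

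Cd244 followed Cd48 in direction within the MPPs. Averaged over MPP1 to MPP4 it was 20.5 CPM in Young and 28.5 CPM in Aged cells, a log2 fold change of 0.53 (SE 0.13, adjusted p = 0.00206), although none of the 4 fractions passed alone in edgeR. In this mean over MPPs 3 of 7 members were called, against 36.7% of all genes. In MPP3, which had the largest Cd244 difference of the 4, Young libraries had 28.5 and 28.0 CPM and Aged libraries 42.4 and 42.0 CPM (log2 fold 0.63, SE 0.24, adjusted p = 0.0678). The same gene had 36.6 and 43.5 CPM in Young and 55.7 and 55.0 CPM in Aged CLPs (0.48, SE 0.24, adjusted p = 0.177). DESeq2 called Cd244 higher in MPP3, MPP4 and CLPs (adjusted p = 1.15e-04, 0.0054 and 0.0013), and it called 2, 3 and 2 members in these fractions where 19.7%, 22% and 15.2% of all genes were called. Its log2 fold changes in DESeq2 were 0.58, 0.43 and 0.49, beside 0.63, 0.48 and 0.48 in edgeR.

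Cd84 moved the opposite way and fell in the mean of Aged MPPs. Its mean over MPP1 to MPP4 was 68.7 CPM in Young and 50.6 CPM in Aged cells (log2 fold -0.39, SE 0.07, adjusted p = 1.51e-04). In MPP4, Young libraries had 63.7 and 76.7 CPM and Aged libraries 42.0 and 44.7 CPM (-0.61, SE 0.15, adjusted p = 0.00396). That call was lost without Young MPP4 replicate 2 (-0.46, adjusted p = 0.0745) and without either Aged MPP4 replicate (adjusted p 0.0222 to 0.0445). Markers of other cells were lower in the same Aged MPP4 libraries, with sums of 37.4 to 43.0 CPM in Young and 7.07 to 8.75 CPM in Aged for 5 macrophage genes, 170 to 179 and 49.4 to 52.5 CPM for 4 plasma cell genes, and 21.2 to 24.6 and 5.63 to 6.08 CPM for 6 basophil and mast cell genes. The macrophage sum was also lower in Aged MPP1, MPP2 and MPP3 without overlap. The 6 HSC markers summed to 864 to 959 CPM in Young and 452 to 456 CPM in Aged MPP4. They too were lower in Aged MPP1, MPP2 and MPP3 without overlap. The CLP sum and the T and NK cell sum were instead higher in Aged MPP4. The part of these markers in the Cd84 difference was not tested. In MPP1, MPP2 and MPP3 the Aged libraries were also below the Young ones without overlap, with log2 fold changes of -0.28, -0.27 and -0.41, none of which passed. Cd84 in GMPs was 35.2 and 37.7 CPM in Young and 34.7 and 37.0 CPM in Aged libraries, which overlapped.

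Ly9, by contrast, was higher in Aged GMPs and CLPs. In GMPs it had 19.7 and 24.1 CPM in Young and 32.1 and 31.2 CPM in Aged libraries (log2 fold 0.48, SE 0.12, adjusted p = 0.00539). In CLPs it had 81.0 and 71.2 CPM in Young and 115 and 101 CPM in Aged libraries (0.52, SE 0.12, adjusted p = 0.00273). Ly9 is a receptor of lymphocytes and of several innate cell types. Both calls rested on few libraries. The GMP call was lost without Young GMP replicate 1 (0.34, adjusted p = 0.0896) or without either Aged GMP replicate (adjusted p 0.0294 to 0.042), and the CLP call without Young CLP replicate 2 (0.44, adjusted p = 0.0559) or Aged CLP replicate 1 (0.39, adjusted p = 0.0793). In GMPs the T and NK cell sum, nearly all of it Nkg7, was 560 to 594 CPM in Young and 836 to 884 CPM in Aged libraries, with Cd3e, Cd3d, Cd3g and Gzma at 0, and the basophil and mast cell sum was 533 to 534 and 235 to 297 CPM. The part of these GMP markers was not tested. The basophil, macrophage, B cell, GMP, plasma cell, and T and NK cell sums were lower in Aged CLPs and the dendritic cell sum was higher. The macrophage sum was 106 to 117 CPM in Young and 2.36 to 2.50 CPM in Aged CLPs. The part of these CLP markers in the Ly9 difference was not tested. In CLPs, Slamf6 (78.6 and 81.7 CPM in Young, 83.6 and 70.4 CPM in Aged libraries) and Slamf7 (18.3 and 15.9, and 13.4 and 17.2 CPM) overlapped between ages.

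In MEPs, 6 of the 7 members were lower in Aged cells. Slamf6 had 142 and 81 counts in Young and 0 and 0 in Aged MEPs, at least 27.7-fold higher in Young cells when the Aged libraries are set at the floor of 3 counts each. Slamf7 had 46 and 78 counts in Young and 0 and 4 in Aged MEPs (log2 fold -4.51, SE 0.73, adjusted p = 2.29e-04). Both are receptors of lymphoid cells. Slamf1 had 108 and 92 counts in Young and 4 and 14 in Aged MEPs (-3.06, SE 0.41, adjusted p = 1.07e-05). Cd48 had 827 and 738 counts in Young and 143 and 176 in Aged MEPs (-1.89, SE 0.12, adjusted p = 1.57e-10). Ly9 had 91 and 84 against 19 and 37 counts (-1.24, SE 0.19, adjusted p = 4.28e-05), and Cd84 335 and 210 against 113 and 103 counts (-0.91, SE 0.18, adjusted p = 4.65e-04). The Cd84 call was lost without Young MEP replicate 1 (-0.63, adjusted p = 0.0191). In a fit of the 4 MEP libraries alone the calls of Slamf1 (adjusted p = 0.0132), Slamf7 (0.0207), Ly9 (0.0654) and Cd84 (0.0358) were lost at almost equal log2 fold changes. Cd244, with 18 and 0 counts in Young and 5 and 5 in Aged MEPs, did not pass, and its Young libraries lay on both sides of the Aged ones.

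Genes of B-lineage cells moved with these members in the MEP libraries. Dntt, the terminal transferase of lymphoid progenitors, was read 773 and 864 times in the Young MEP libraries, Cd79a 801 and 836 times and Igll1 559 and 689 times, and all 3 stood at 0 in each Aged MEP library. The 5 GMP markers summed to 247 to 273 CPM in Young and 27.0 to 106 CPM in Aged MEPs. The 5 erythroid markers, such as Klf1 and Gata1, summed to 11544 to 11618 CPM in Young and 11518 to 12132 CPM in Aged MEPs. Set against the level in Young CLPs, Young MEPs held 3.19% of the Dntt level, 5.63% of Cd79a, 8.17% of Igll1, 10.6% of Ebf1 and 0.658% of Ms4a1. By the same measure they held 8.90% of Slamf6, 7.45% of Ly9, 23.8% of Slamf7, 32.5% of Cd48, 51.2% of Cd84 and 1.37% of Cd244. Slamf1 stood at 6.46 CPM in Young MEPs and 1.56 CPM in Young CLPs. The part of the B-lineage RNA in the MEP differences was not tested.

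**Figure D4:**
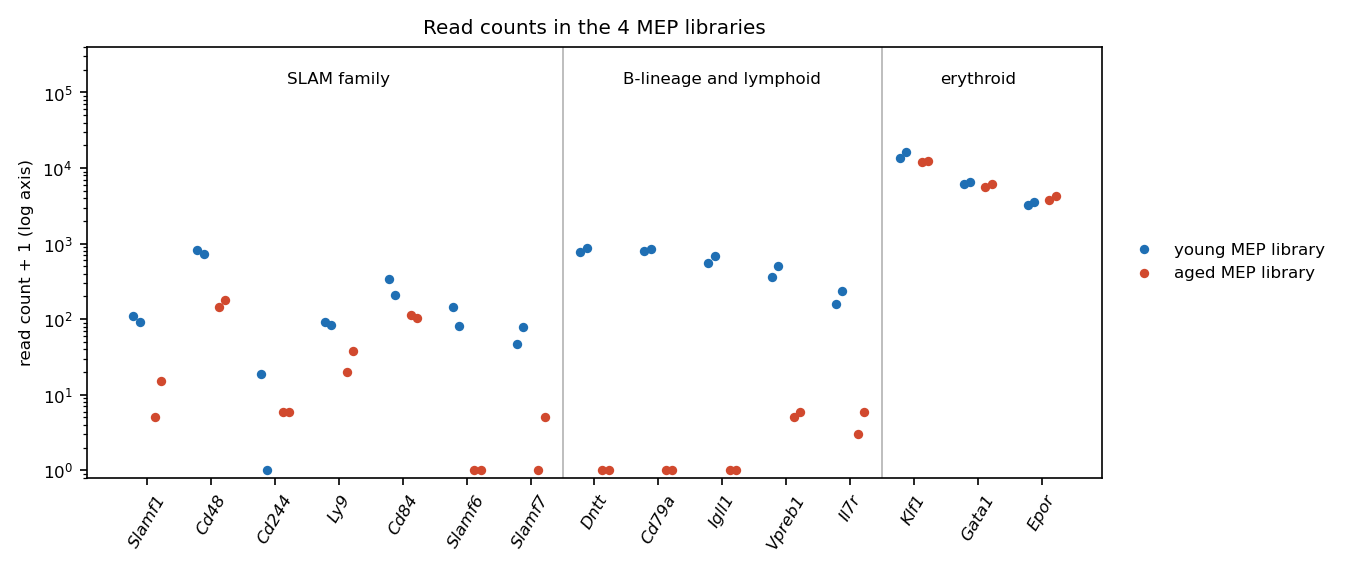
Read counts plus 1 (log axis) of the 7 members, 5 lymphoid genes and 3 erythroid genes in the 4 MEP libraries, blue for Young and red for Aged. Of the lymphoid genes Dntt, Cd79a and Igll1 are at 0 in both Aged libraries, as is Slamf6, while the erythroid genes lie close together at both ages.

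Whether the age differences themselves differed between fractions was tested against the mean of MPP1 to MPP4. In GMPs minus that mean, 2 of 7 members were called where 26.6% of all genes were called, Cd48 lower (log2 difference -1.15, SE 0.12, adjusted p = 2.04e-07) and Ly9 higher (0.58, SE 0.14, adjusted p = 0.0019). In CLPs minus that mean, 2 of 7 were called against 22.6%, again Cd48 lower (-0.66, SE 0.12, adjusted p = 1.67e-04) and Ly9 higher (0.63, SE 0.13, adjusted p = 7.05e-04). Both counts lie near the shares of all genes. Relative to the MPP mean, Cd48 and Ly9 thus moved apart in Aged GMPs and CLPs. Within CLPs alone Cd48 did not pass the age test (log2 fold 0.12, adjusted p = 0.461). In MEPs minus that mean, 3 of 7 were called lower against 24.8% of genes, Cd48 (-2.68, SE 0.14, adjusted p = 4.12e-12), Slamf1 (-2.63, SE 0.60, adjusted p = 0.00163) and Ly9 (-1.13, SE 0.20, adjusted p = 1.57e-04). The edgeR fit could not test Slamf6 and Slamf7 here, where their SEs were 20302 and 15246. DESeq2 called both lower (-7.33 and -4.68, adjusted p = 1.45e-05 and 1.69e-04). The Slamf1 call was lost without Aged MPP4 replicate 2 (-1.70), where it stood at 3 counts, or Aged MEP replicate 1 (-2.05). Without the former, Aged MPP4 held 0 counts of Slamf1, and that fit could not test the contrast. The Ly9 calls were lost without Young GMP replicate 1 or either Aged GMP replicate in GMPs (adjusted p 0.0113 to 0.0353) and without Young CLP replicate 2 or Aged CLP replicate 1 in CLPs (adjusted p 0.0138 to 0.0168). In HSCs minus that mean, edgeR called 0 of 7 where 3% of genes were called, with 4 members at an unadjusted p under 0.05. DESeq2 called 1 member there, Ly9 (0.53, adjusted p = 0.00247), where it called 7.86% of genes. These comparisons share the MPP libraries and are not independent of each other.

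The wider signalling list held 17 genes, of which 15 passed the filter on low counts. The adaptor genes were scarce, with at most 3 counts of Sh2d1a (SAP) in any library and 0 of Sh2d1b2, while Sh2d1b1 (EAT-2) had 88 and 124 counts in Young GMPs and 57 and 64 in Young CLPs. The kinase Fyn, which SAP recruits, and the phosphatase Ptpn6 (SHP-1) were present in all fractions. None of the 15 passed the age test in HSCs, MPP1, MPP2 or MPP3 by edgeR, with 5, 4, 1 and 2 genes at an unadjusted p under 0.05 and 1, 1, 1 and 2 called by DESeq2. In Aged CLPs 3 of 15 were called higher and 0 lower, against 10.4% of all genes called: Fyn (312 to 663 CPM, log2 fold 1.11, SE 0.13), Ptpn6 (550 to 908 CPM, 0.74, SE 0.09) and Slamf9 (1.72, SE 0.40). Slamf9, a family member outside the cluster described here that is known from dendritic cells and macrophages, had 390 to 499 counts in Young and 1283 to 1857 in Aged CLPs. The dendritic cell markers were higher in the same Aged libraries, and their part was not tested. In Aged GMPs 3 of 15 were called higher, near the 18.9% of all genes called there, Plcg1 (0.87, SE 0.17), Inpp5d, which encodes SHIP-1 (0.37, SE 0.09), and Vav1 (0.26, SE 0.07).

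At the exits from the MPPs, 9 of 15 were lower and 2 higher from MPP2 to MEP, 8 lower and 6 higher from MPP3 to GMP, and 1 lower and 9 higher from MPP4 to CLP. These counts stand beside 70.7%, 61.5% and 50.1% of all genes called at the 3 steps, and the first is near that share. In Aged MEPs 6 of the 15 were lower and 0 higher, with a median over the list of -0.27 against 0 for all genes, where 11.7% of all genes were called lower and 9.09% higher. Plcg2, a phospholipase of B-cell receptor signalling, fell by 1.90 (SE 0.09), Plcg1 by 1.21 (SE 0.19), Lck by 1.02 (SE 0.28), Fyn by 0.71 (SE 0.15), Prkcq by 0.68 (SE 0.15) and Vav1 by 0.41 (SE 0.08). The B-lineage markers given above fell in the same libraries. Prkcq, a kinase of T-cell receptor signalling, was also lower in Aged MPP4 (-0.70, SE 0.13, adjusted p = 2.64e-04) and was the only gene of the list called there. Slamf8, a further relative of the family, was highest in HSCs, with 94 and 144 counts in Young and 112 and 173 in Aged libraries, fell by 1.67 on the log2 scale from HSC to MPP1, and did not pass the age test in HSCs (0.26, SE 0.37, adjusted p = 0.759). Slamf9 had 0 and 0 counts in Young HSCs and 8 and 11 in Aged HSCs (adjusted p = 0.0605).

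**Figure D5:**
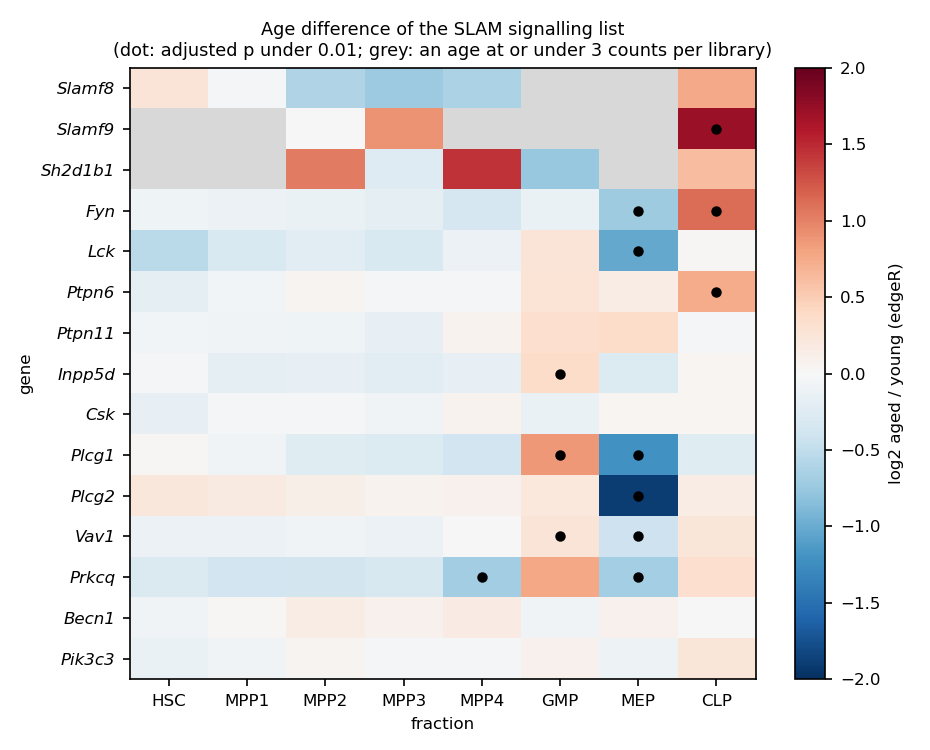
The colour of each cell gives the log2 ratio of Aged to Young from edgeR for 15 genes of the SLAM signalling list (rows) in 8 fractions (columns), with black dots at an adjusted p under 0.01 and grey where an age is at or under 3 counts per library. The 6 dots in the MEP column lie on blue cells and the 3 in the CLP and the 3 in the GMP column on red ones.

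The genes around the cluster were read for comparison. Within 500000 bp of its ends lay 41 annotated protein-coding genes, of which 40 were in the table and 30 were tested. In MEPs 6 of these neighbours were higher and 4 lower with age, where 20.8% of all genes were called, and in MPP4 2 were higher and 4 lower, near the 16.6% of all genes called. The 3 neighbours with the largest called age difference were Fcgr3 (chr1:171051174-171064935), an Fc receptor of the GMP gate, lower in Aged CLPs by a log2 fold of 2.99 (SE 0.18), Vangl2 (chr1:172000960-172028444), lower in Aged MEPs by 2.36 (SE 0.52), and Fcer1g (chr1:171229572-171234365), the shared signalling chain of Fc receptors, lower in Aged MPP4 by 1.14 (SE 0.17). Fcgr3 has closely related Fc receptor genes beside it that may share its reads, so its counts are uncertain.

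Across the 16 group means of log2 CPM, 3 pairs of members had the highest correlations. Slamf6 and Slamf7 had a Pearson r of 0.85, and Cd244 had 0.80 with Ly9 and 0.77 with its ligand gene Cd48. Slamf1 and Cd48, which encode sorting antigens, were opposed (r = -0.72), and the gates on their products set this in part. The gene most like Slamf7 was Pou2af1, a coactivator of B cells (r = 0.99), followed by Chst3 and Lef1. Slamf6 was most like Tmem108, Mycl and Akap12 (r = 0.96 for the first), and Cd244 most like Tespa1, Apcdd1 and Bpifc (0.96). Ly9 resembled Icosl, the ligand of ICOS (0.98), Baiap2 and Galnt2, and Cd84 resembled Cyp4v3 (0.98), Neurl3 and Maged2. Slamf1 was most like Plxnc1, Sytl5 and 2610528J11Rik (0.94 for the first) and Cd48 like Btnl9 (0.95), Mbd4 and Brip1. These are descriptions over 16 points that share fractions, and with a rank correlation 4 of the 21 genes were retained.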

How the data were processed

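According to the study, RNA was amplified with the SMARTer Ultra Low Input kit, and reads were aligned to mm10 with TopHat2 and counted per gene with StringTie. The deposited values are whole-number read counts per gene as the authors made them, with no normalization and no molecular identifiers. Of 24421 rows, 27 carried date names in place of symbols and held 0.188% of counts. The members and the lists of genes were chosen with earlier results of these data known. edgeR 4.0.16 in R 4.3.3 was run on all 32 libraries with 1 mean per group, TMM factors (0.807 to 1.11), filterByExpr (14154 genes left) and the two-sided quasi-likelihood F-test. P-values were adjusted within each contrast over all genes tested (Benjamini-Hochberg), and an adjusted p under 0.01 was called. SEs were taken as the log2 fold change over the root of F. DESeq2 1.42.0, DESeq2 size factors, no filter, a replicate block, fits of 4 libraries, a threshold of 0.05 and leaving out each library were alternatives; fits without the MEP and without the CLP libraries were added after seeing the data. CPM in the text are per total count, without TMM. A list of 17 genes of SLAM signalling, protein-coding neighbours within 500000 bp (values for the 3 largest called age differences) and the 3 genes most like each member were named. The fit was tested on simulated data. One marker gene, and sums over the list that holds it, are not reported here.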

Additional observations from a re-analysis of the deposited data

Results flagged for a closer look

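The age difference itself differed between fractions in 7 results, each an edgeR interaction against the mean age difference of MPP1 to MPP4 with the adjusted p-values given above. Cd48 had a log2 difference of -1.15 in GMPs, -2.68 in MEPs and -0.66 in CLPs. Ly9 had 0.58 in GMPs, -1.13 in MEPs and 0.63 in CLPs. Slamf1 had -2.63 in MEPs. The 3 MEP results stand beside the B-lineage markers that were high in Young and near 0 in Aged MEP libraries.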

How the results depend on the processing

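The number of calls among the members kept within 1.5 times its main value under each alternative that used the same tests. The 14 age calls became 14 with DESeq2 size factors, 19 with DESeq2, 14 without the filter, 10 in fits of 4 libraries and 12 to 15 when 1 library was left out. Of those 10 calls 6 were among the 14, so 8 calls were lost, and 4 were other tests. The 10 combined calls became 10, 15, 10 and 9 to 14 in the same order, without the fits of 4 libraries, and the 35 calls between fractions 36, 42, 36 and 31 to 38. With the replicate block the counts were 14, 11 and 35. Same-numbered Young and Aged libraries of a fraction did not deviate together (correlations from -0.056 to 0.070 per fraction). Over all 120 pairs of groups, which include fractions of the same age, the correlations ran from -0.069 to 0.106, with 2 over 0.1. The numbers were therefore not taken to pair libraries. Without the 4 MEP libraries 10 age calls were made in 49 tests, and without the 4 CLP libraries 12. Over 59 called values and 863 alternative values, 788 kept direction and call, 75 lost the call and 0 reversed; 18 of the 59 lost it at least once, and the cause was not tested. Libraries of 11237384 to 17723245 counts limit members at or under 3 counts, chiefly Slamf6 and Slamf7 outside CLPs, and 2 libraries per group from pooled marrow limit every error given.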
